A study of Sus scrofa with 12 samples.

Results

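The endometrium of non-pregnant sows was compared between 2 white pig breeds, Landrace and Yorkshire, to describe which genes differed by breed in the absence of a conceptus. The comparison used 6 of the 12 sows of the series, 3 Landrace (LL, sows 5, 7 and 9) and 3 Yorkshire (YY, sows 1, 3 and 11). Inactivated semen had been used for the insemination of all 6, which were sampled on day 14 after it, so both breeds share the sham insemination and the day. The other 6 sows, 3 Landrace and 3 Yorkshire sampled pregnant on the same day after insemination, were used to read the same genes again in other animals. They also entered the estimate of the spread between sows that the tests in both states share. Both uterine horns were flushed before sampling, and the samples held lining epithelium, connective tissue and submucosa from several places along each horn, without the muscle layer. Each sow gave 1 Affymetrix porcine array, and the sources used here give neither ages nor family relations of the sows.

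The endometrium of the pig supports the conceptus before attachment by secretion. Under progesterone its glands release histotroph, a mixture that includes uteroferrin (ACP5), retinol-binding protein (RBP4), uteroferrin-associated basic proteins of the serpin family and protease inhibitors. When no conceptus signals its presence, prostaglandin F2-alpha from the endometrium reaches the ovaries and the corpora lutea regress, which makes prostaglandin synthesis a central function of the cyclic endometrium.

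The values are log2 expression levels per probe set, so a difference of 1 is a doubling, and a gene is called where the adjusted p of the limma test over all 23999 probe sets is under 0.05. A marker each of epithelium, stroma and glands was well expressed in all 6 sows. EPCAM, an adhesion protein of epithelium, lay between 11.48 and 11.70, DCN (decorin), of stromal fibroblasts, between 12.32 and 12.58, and FOXA2, a transcription factor of uterine glands, between 9.69 and 10.36, all above the upper quartile of all values at 7.74. Not every marker of these lists was as high. In the gland list LTF lay at 3.93 to 4.66, PRLR at 4.99 to 5.31 and PAEP at 6.16 to 6.48. In the stromal list POSTN lay at 3.69 to 5.34. IFNG, the interferon that pig conceptuses secrete, lay between 3.61 and 4.41 in the 6 sows, below the lower quartile of all values at 4.66. Among the pregnant sows it was 8.21 and 12.65 in Landrace sows 6 and 10. It was 4.26 in pregnant Landrace sow 8 and 4.20, 4.11 and 4.00 in pregnant Yorkshire sows 2, 4 and 12. A low IFNG level therefore does not tell the states apart.

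Some sows stood apart from their groups. Landrace sow 7 correlated with the other non-pregnant sows at r of 0.960 to 0.975 across probe sets, against 0.992 between sows 5 and 9, and 98 genes were more than 2 log2 units above the mean of sows 5 and 9 in it, against 6 genes that differed by that much between sows 5 and 9. The pregnant Yorkshire sow 12 correlated most closely with the non-pregnant Yorkshire sow 11, at r = 0.992. The pregnant Landrace sow 8 also correlated most closely with a non-pregnant sow, Landrace sow 5, at r = 0.983. Its mean r with its own group was 0.981. S100A9, a granulocyte calcium-binding protein, was 7.72 in sow 12 and 12.06 to 12.79 in the 5 other pregnant sows. Among the non-pregnant sows it was 9.35 in sow 7, above pregnant sow 12, and 3.16 to 3.91 in the other 5. For the genes named here, the non-pregnant sows whose omission ended the call in non-pregnant sows are given.

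A measure of RNA integrity moved with breed. The difference between the 3' and the 5' control probe sets of GAPDH, which grows as RNA is shortened from its 5' end, was 0.958 ± 0.084 (SD, n = 3) in the non-pregnant Landrace sows and 1.44 ± 0.169 in the Yorkshire sows. The 3 Landrace values (0.869 to 1.04) lay below the 3 Yorkshire values (1.31 to 1.63), with an exact permutation p of 0.1, two-sided, the smallest that 3 against 3 allows. Over all 12 sows the difference was -0.421 (exact permutation p = 0.00216, n = 6 per breed). The same measure of ACTB differed by -0.127 (exact permutation p = 0.400) in the non-pregnant sows. With the GAPDH measure as a covariate no probe set was called in limma (smallest adjusted p = 0.124, 1477 probe sets at an unadjusted p under 0.05). The part of the standard error that the design sets, apart from the residual spread, was 2.27 times as large. All 83 called genes described next kept their sign. Their median difference was then 1.16 for the genes higher in Landrace sows, against 1.13 without the covariate, and -0.68 for those lower, against -0.85. Single genes moved more, such as VNN2 from 4.15 to 6.77 and PTP4A2 from 1.52 to 0.28. With the covariate 20 of the 29 higher and 21 of the 54 lower genes had an unadjusted limma p under 0.05. Medians of gene lists under the covariate are given beside the list. The effect of breed and that of RNA integrity cannot be told apart in these sows.

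**Figure D1:**
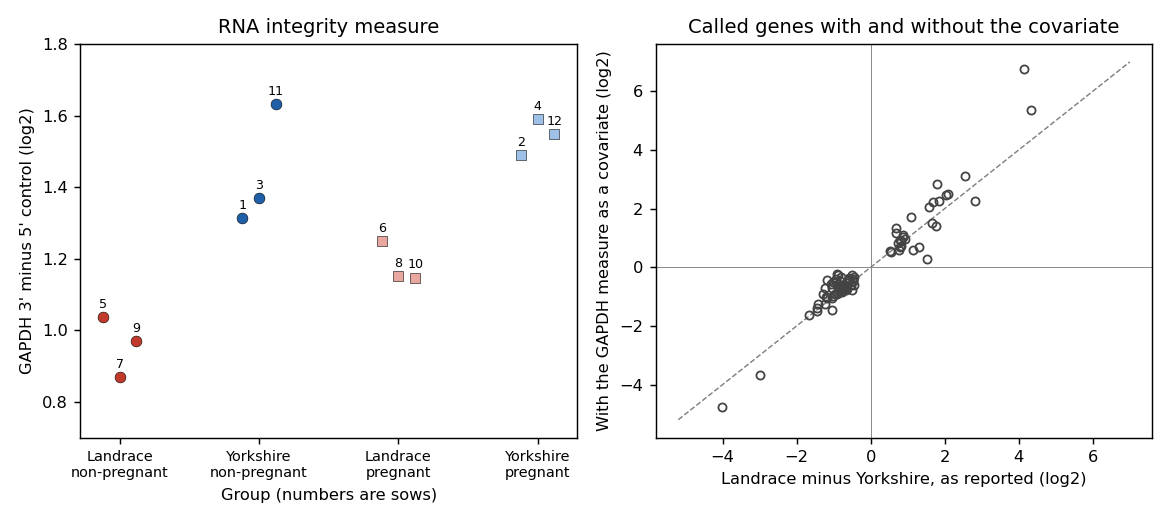
Left, the GAPDH 3' minus 5' control difference (log2) of each of the 12 sows by group, with 1 point per sow and the sow's number above it; the 3 non-pregnant Landrace sows lie at 0.869 to 1.04 and the 3 non-pregnant Yorkshire sows at 1.31 to 1.63. Right, the Landrace minus Yorkshire difference (log2) of the 83 called genes in non-pregnant sows as reported (horizontal) and with that measure as a covariate (vertical), with the dashed line marking equal values; every gene keeps its sign.

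Between the breeds, 250 of 23999 probe sets were called (1.04%), with 95 higher in Landrace sows (0.396%) and 155 lower (0.646%). At an unadjusted p under 0.05 there were 3402 (14.2%). Taking 1 probe set per gene, 83 of 6765 named genes were called (1.23%), 29 of them higher (0.429%) and 54 lower (0.798%). The groups did not overlap in any of the 83. These genes were selected by a test on the same values, so the lack of overlap is no added support. Over all genes every Landrace sow lay above every Yorkshire sow in 9.45% and below in 12.7%. The 29 higher genes differed by 0.51 to 4.33 with a median of 1.13, and the 54 lower genes by -4.02 to -0.45 with a median of -0.85. The genes higher in Landrace sows were fewer, with a larger median difference, and their 6 largest differences were those of UABP-2, VNN2, LIF, IER3, RBP4 and PTGS2.

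The number of calls depended on the sows in the fit. Leaving out sow 7 left 15 genes higher and 25 lower, of which 12 and 23 were among the 83. Leaving out sow 1 left 10 and 16, sow 3 left 7 and 19, sow 5 left 7 and 18, sow 9 left 26 and 42, and sow 11 left 16 and 19. Leaving out the pregnant sow 12, which adds only to the estimate of the spread, gave 54 higher and 84 lower, all 83 among them. With the 6 non-pregnant arrays fitted alone, 10 of the 29 higher and 21 of the 54 lower genes stayed called. Of the 12 largest upward differences, those of VNN2, LIF, IER3, FAM46A and MRPS36 stayed called. Those of UABP-2, RBP4, PTGS2, ACSL4, TMEM26, PHLDA2 and ACP5 did not. Only 13 genes were called under each of the 6 omissions of a non-pregnant sow, 5 of them higher (VNN2, PTGS2, TUSC3, PRELID1 and MCUB) and 8 lower (LOC100621607, MPP7, EGLN1, SMAD1, FAM84A, PHF20, TBC1D20 and TPP1).

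Histotroph genes were among the largest differences. UABP-2, a uteroferrin-associated basic protein, was 11.64, 12.75 and 9.25 in Landrace sows 5, 7 and 9 and 7.08, 5.69 and 7.87 in Yorkshire sows 1, 3 and 11. The lowest Landrace sow was above the highest Yorkshire sow, although the spread within each breed exceeded 2 log2 units. The difference was 4.33 ± 0.87 (SE, as for all differences that follow), or 20.1-fold (limma adjusted p = 0.0447), and it was 3.56 with an adjusted p of 0.121 without sow 7. UABP-2 belongs to a family of close relatives, and binding of their transcripts to its probes was not tested.

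RBP4, which carries retinol, was 12.92, 13.01 and 12.57 in Landrace sows 5, 7 and 9 and 11.27, 9.83 and 11.13 in Yorkshire sows 1, 3 and 11, a difference of 2.09 ± 0.34 (adjusted p = 0.0177). Another probe set of RBP4 differed by 0.33 and was not called. ACP5 (uteroferrin), the purple acid phosphatase that carries iron in histotroph, was 13.08, 13.52 and 12.71 in the Landrace sows and 11.51, 11.17 and 11.90 in the Yorkshire sows, a difference of 1.58 ± 0.26 (adjusted p = 0.0174). In both genes the lowest Landrace sow was above the highest Yorkshire sow, and Yorkshire sow 3 was the lowest of the 6. The calls of RBP4 were lost without sow 5 or 7, and those of ACP5 without sow 1, 3, 5 or 7.

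The list of histotroph proteins and protease inhibitors had 34 measured genes, of which 3 were called higher (UABP-2, RBP4 and ACP5) and 1 lower (TIMP3, an inhibitor of matrix metalloproteinases, -0.86 ± 0.15, adjusted p = 0.0208; lost without sow 1, 3, 7, 9 or 11). The called share was 11.8%, against 1.23% of all genes. Every Landrace sow was above every Yorkshire sow in 11 of the 34 and below in 4, against 9.45% and 12.7% of all genes. The median difference of the list was 0.51, or 0.18 with the GAPDH covariate, against -0.004 over all genes, and all 3 Landrace sows had a higher list mean than any Yorkshire sow. Relative to the mean of the Yorkshire sows the list mean was 0.56 in sow 5, 1.23 in sow 7 and 0.34 in sow 9, and -0.13 to 0.14 in the Yorkshire sows. Without sow 7 the median was 0.16 and none of the list was called. SLPI, a secreted leukocyte protease inhibitor, was counted in the list of innate recognition and antimicrobial genes and not in this one. It was 11.67, 13.70 and 10.02 in the Landrace sows and 9.11, 8.57 and 9.05 in the Yorkshire sows. The difference of 2.88 did not pass the test (limma adjusted p = 0.124) and was 1.93 (adjusted p = 0.285) without sow 7.

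**Figure D2:**
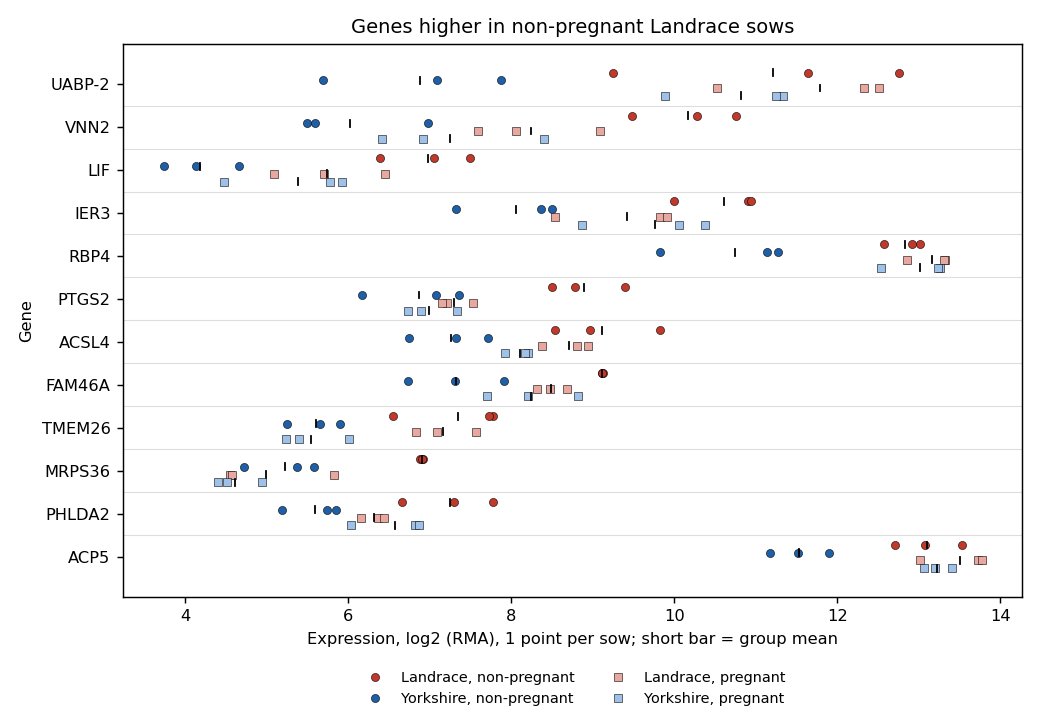
Expression (log2) of the 12 genes with the largest called differences upward in non-pregnant Landrace sows, with 1 point per sow, 3 sows per group and a short bar at each group mean. Circles are non-pregnant and squares pregnant sows. In the non-pregnant groups every Landrace point lies to the right of every Yorkshire point, while the pregnant groups overlap for most of these genes, TMEM26 and ACSL4 excepted.

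LIF and PTGS2, a cytokine and an enzyme of the uterine lining, were both higher in Landrace sows. LIF, leukaemia inhibitory factor, is a cytokine that mice require for implantation. It was 7.05, 7.5 and 6.39 in Landrace sows 5, 7 and 9 and 4.65, 3.74 and 4.13 in Yorkshire sows 1, 3 and 11, a difference of 2.80 ± 0.44 or 6.98-fold (adjusted p = 0.0156). All 3 Yorkshire values lay below the lower quartile of all values, where background makes differences smaller. The difference was 2.54 (adjusted p = 0.0536) without sow 7, and the call was also lost without sow 3, 5 or 11.

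PTGS2, the inducible cyclooxygenase that commits arachidonic acid to prostaglandins, was 8.78, 9.39 and 8.49 in the Landrace sows and 7.07, 6.17 and 7.36 in the Yorkshire sows. The difference of 2.02 ± 0.30, or 4.06-fold (adjusted p = 0.0138), stayed called when each of the 6 sows was left out. With the 6 non-pregnant arrays fitted alone it was not called (limma adjusted p = 0.0587). ACSL4, a ligase that activates arachidonic acid, was 8.97, 9.82 and 8.53 against 6.74, 7.31 and 7.71, a difference of 1.85 ± 0.31 (adjusted p = 0.0203; lost without sow 1, 3 or 5). Both enzymes handle the same fatty acid, and a link between their differences was not tested. Of the 12 measured genes of prostaglandin synthesis and reception PTGS2 alone was called (8.33%, against 1.23% of all genes). In this list 11 genes differed upward, against 3330 of 6765 over all genes. The list median was 0.25 (0.17 without sow 7, 0.08 with the GAPDH covariate).

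VNN2, a vanin (a pantetheine-splitting enzyme held at the cell surface), had a difference of 4.15 ± 0.58 or 17.8-fold (adjusted p = 0.0097). Its values were 10.76, 10.28 and 9.48 in Landrace sows 5, 7 and 9 and 5.59, 5.49 and 6.98 in Yorkshire sows 1, 3 and 11, and the call held in each omission of a non-pregnant sow. IER3, an early response gene that acts in cell survival, was 10.90, 10.95 and 9.99 in the Landrace sows and 8.36, 7.32 and 8.50 in the Yorkshire sows (2.55 ± 0.48, adjusted p = 0.0349). IER3 was the only called gene of 24 measured immediate early genes (4.17%, against 1.23% of all genes). Of the 24 genes, 22 differed upward, against 3330 of 6765 over all genes, and their median was 0.40. In that list the mean was 1.07 in sow 7, 0.52 in sow 5 and 0.25 in sow 9, and the median was 0.20 without sow 7 and 0.10 with the GAPDH covariate.

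The other genes of the 12 largest upward differences had mixed roles. PHLDA2, an imprinted gene that restrains placental growth, was 7.30, 7.77 and 6.66 in the Landrace sows and 5.85, 5.19 and 5.73 in the Yorkshire sows (1.65 ± 0.29, adjusted p = 0.0266). FAM46A, of a family of non-canonical poly(A) polymerases, was 9.11, 9.12 and 9.12 against 7.30, 6.73 and 7.91 (1.8 ± 0.30, adjusted p = 0.0182). MRPS36, named as a mitochondrial ribosomal protein, was 6.92, 6.88 and 6.90 against 4.72, 5.36 and 5.58 (1.68 ± 0.32, adjusted p = 0.0349). FAM46A and MRPS36 were nearly constant among the Landrace sows, so their spread lay among the Yorkshire sows. TMEM26, a membrane protein, was 7.77, 7.72 and 6.54 against 5.90, 5.24 and 5.66 (1.75 ± 0.34, adjusted p = 0.0360). The calls of UABP-2, IER3, TMEM26 and PHLDA2 were lost without sow 1, 3, 5, 7 or 11, that of FAM46A without sow 1, 3, 5 or 7, and that of MRPS36 when any of the 6 was left out.

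The 17 other genes called higher differed by 0.51 to 1.52. Among them, named here for their roles after their values were seen, TUSC3, a subunit of the complex that attaches sugars to new proteins, differed by 1.08 ± 0.15 (adjusted p = 0.00831), and KDELR2, which returns proteins to the endoplasmic reticulum, by 1.13 ± 0.20 (adjusted p = 0.0294; lost without sow 1, 7, 9 or 11). The 2 other probe sets of KDELR2 differed by -0.25 and 0.36, and neither was called. PRELID1, which moves phosphatidic acid between mitochondrial membranes, differed by 0.91 ± 0.11 (adjusted p = 0.00531). MCUB, a subunit that dampens the mitochondrial calcium uniporter, was 6.76, 6.77 and 6.58 in the Landrace sows and 5.78, 5.77 and 5.92 in the Yorkshire sows (0.88 ± 0.11, adjusted p = 0.00594). PRDX5, a peroxiredoxin, differed by 0.76 ± 0.16 (adjusted p = 0.0480, lost without sow 1, 3, 5, 9 or 11). It was the only called gene of 42 in the redox and glutathione list (2.38%, against 1.23% of all genes). Every Landrace sow was above every Yorkshire sow in 14 of those 42 and below in 2, against 9.45% and 12.7% of all genes. The list median was 0.17, or 0.21 without sow 7 and 0.14 with the GAPDH covariate.

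Among the genes lower in Landrace sows the largest difference was that of LOC100621607, a gene without an established name. It was 5.01, 5.24 and 5.25 in Landrace sows 5, 7 and 9 and 9.52, 9.08 and 8.96 in Yorkshire sows 1, 3 and 11, a difference of -4.02 ± 0.42 or 16.2-fold (adjusted p = 0.00251). CCK, cholecystokinin, a peptide hormone of gut and brain, was 5.91, 6.01 and 5.64 in the Landrace sows and 8.13, 9.92 and 8.53 in the Yorkshire sows, a difference of -3.0 ± 0.49 or 8.02-fold (adjusted p = 0.0177). The Landrace sows were uniform for both genes, and Yorkshire sow 3 was the highest for CCK. The call of CCK was lost without sow 3, 5, 9 or 11. It was the only called gene among 26 neuropeptides and peptide hormones (3.85%, against 1.23% of all genes).

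EGLN1, the prolyl hydroxylase that marks hypoxia-inducible factor for destruction when oxygen is present, had the smallest adjusted p of the 83 genes. It was 7.53, 7.34 and 7.73 in the Landrace sows and 9.10, 8.92 and 8.95 in the Yorkshire sows (-1.46 ± 0.12, or 2.75-fold, adjusted p = 0.000368). MPP7, a scaffold protein of cell junctions, was 5.53, 5.32 and 5.86 against 7.65, 6.77 and 7.29 (-1.67 ± 0.21, adjusted p = 0.00531). SMAD1, which carries signals of bone morphogenetic proteins to the nucleus, was 6.86, 6.88 and 6.83 against 8.0, 8.02 and 8.44 (-1.30 ± 0.16, adjusted p = 0.00531). These 3 genes and FAM84A (-1.20 ± 0.16, adjusted p = 0.00677) stayed called in each omission of a non-pregnant sow. For all of them the breeds were separated by more than the range within either breed, MPP7 included, whose Yorkshire sows spanned 6.77 to 7.65.

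BAX, which opens the outer mitochondrial membrane in apoptosis, was 4.81, 4.83 and 5.19 in the Landrace sows and 6.03, 6.46 and 6.61 in the Yorkshire sows (-1.42 ± 0.24, adjusted p = 0.0198; lost without sow 3, 5, 7 or 11). DCP1A, which takes part in the removal of mRNA caps, was 7.14, 6.79 and 6.92 against 8.33, 8.47 and 8.38 (-1.44 ± 0.22, adjusted p = 0.0138; lost without sow 3). PAPOLA, the main nuclear poly(A) polymerase, was 7.10, 7.14 and 7.28 against 8.36, 8.14 and 8.73 (-1.24 ± 0.18, adjusted p = 0.0127; lost without sow 5). In each of these 3 genes the highest Landrace sow was below the lowest Yorkshire sow. CXXC5, a zinc finger protein, differed by -1.24 (adjusted p = 0.0166; lost without sow 1, 5, 7 or 11), KCTD20 by -1.19 (adjusted p = 0.0154; lost without sow 1, 5 or 11) and USP2, a deubiquitinase, by -1.17 (adjusted p = 0.0182; lost without sow 3, 5, 7 or 11).

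**Figure D3:**
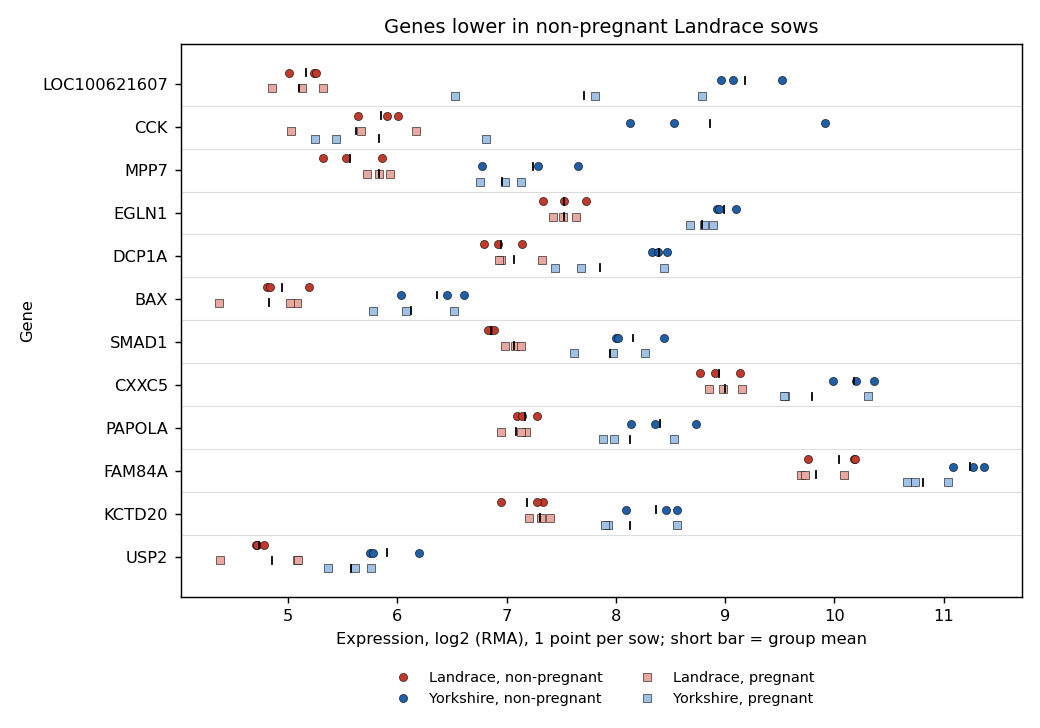
Expression (log2) of the 12 genes with the largest called differences downward in non-pregnant Landrace sows, with 1 point per sow, 3 sows per group and a short bar at each group mean. Circles are non-pregnant and squares pregnant sows. The pregnant groups are separated in the same direction for most of the 12 genes, while for CCK all 6 pregnant sows lie at or below 6.81.

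The 42 other genes called lower differed by -1.09 to -0.45. They include 2 genes of the matrix list. MMP2 (gelatinase A) was 10.05, 10.28 and 10.38 in the Landrace sows and 10.78, 10.74 and 10.93 in the Yorkshire sows (-0.58 ± 0.11, adjusted p = 0.0335; lost without sow 1, 3, 5, 7 or 11). MMP2 and TIMP3 were the called genes among 39 of matrix and remodelling (5.13%, against 1.23% of all genes). The median of the 39 was -0.15, or 0.24 with the GAPDH covariate. Outside that list, and named after their values were seen, TNXB (tenascin X) differed by -0.95 (adjusted p = 0.0138; lost without sow 5) and P4HA2, a collagen prolyl hydroxylase, by -0.91 (adjusted p = 0.0489; lost without sow 1, 3, 5, 7 or 11). The list of 9 stromal fibroblast markers had a median of -0.28 with none called, which turned to 0.12 with the GAPDH covariate. Without the covariate all 3 Landrace sows had a lower list mean (-0.41 to -0.19) than the Yorkshire sows (-0.11 to 0.13). In whole tissue, fewer cells of a type and less RNA per cell cannot be told apart, and the part of the fibroblast markers in the matrix genes was not tested.

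In the list of WNT, TGF-beta and hedgehog signalling, SMAD1 and DKK3, a secreted Dickkopf protein (-0.67 ± 0.14, adjusted p = 0.0472, lost without sow 1, 3, 5, 7 or 11), were called lower. They were the only called genes of 29 measured (6.90%, against 1.23% of all genes). The list median was -0.09, or 0.29 with the GAPDH covariate. GOT2, the mitochondrial aspartate aminotransferase, was 10.10, 10.05 and 10.17 in the Landrace sows and 10.62, 10.77 and 10.69 in the Yorkshire sows (-0.58 ± 0.10, adjusted p = 0.0246; lost without sow 1, 3, 5, 7 or 11). It was the only called gene of 52 in central metabolism (1.92%, against 1.23% of all genes). Every Landrace sow was below every Yorkshire sow in 15 of the 52 and above in 5, against 12.7% and 9.45% of all genes. PPARGC1A, a coactivator of mitochondrial biogenesis, differed by -1.02 ± 0.19 (adjusted p = 0.0348, lost without sow 1, 3, 5, 9 or 11). It was the only called gene of 48 in lipid metabolism (2.08%, against 1.23% of all genes). Outside the lists, and named after their values were seen, CHD7, a nucleosome remodeller, differed by -0.88 (adjusted p = 0.0174; lost without sow 1 or 11), KDM2A, a histone demethylase, by -0.68 (adjusted p = 0.0145; lost without sow 1 or 3) and PHF20, a reader of histone marks, by -1.06 (adjusted p = 0.00869).

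Of the 31 gene lists, 21 had no called gene, and of the 16 lists of cell type markers the uterine gland list alone had one (ACP5, of 7 measured). The lists of immune genes and immune cell markers stood apart in sow 7. The mean of 8 macrophage and monocyte markers, relative to the Yorkshire mean, was 2.0 in sow 7, 0.04 in sow 5 and 0.06 in sow 9, and -0.08 to 0.07 in the Yorkshire sows. Sow 7 was the highest of the 6 in 7 of these 8 genes, in all 12 T and NK cell markers, in 9 of 10 MHC class II genes and in 31 of 39 chemokines, cytokines and receptors, against 24.9% of all genes. The scavenger receptor CD163 was 11.11 in sow 7 and 7.12 to 7.56 in the other 5. The chemokine CXCL13, named after its values were seen, was 12.59 in sow 7 and 5.79 to 6.34 in the other 5.

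The breed median of the macrophage list was 0.73 with sow 7 and 0.10 without, that of MHC class II 0.76 and -0.03, that of complement 0.56 and 0.14, and that of chemokines and cytokines 0.33 and 0.02. That of 21 interferon-stimulated genes was 0.01 with sow 7 and -0.34 without, when 2 of the 21 differed upward. With the GAPDH covariate the macrophage median was -0.31, that of MHC class II 0.22, that of complement 0.01, that of chemokines and cytokines -0.21 and that of interferon-stimulated genes 0.50. LIF was the only called gene in these 5 lists. Among the 18 complement genes every Landrace sow was above every Yorkshire sow in 6 and below in 1, against 9.45% and 12.7% of all genes. Relative to the Yorkshire mean, their mean was 0.30, 1.39 and 0.24 in sows 5, 7 and 9 and -0.12 to 0.07 in the Yorkshire sows. In the complement list and in those of steroid metabolism and growth factors the gene with the smallest p did not pass the test. SULT2A1, a steroid sulfotransferase, differed by 2.49 (adjusted p = 0.0806), FGF7, a growth factor for epithelium, by 2.14 (adjusted p = 0.0733), and CFD (complement factor D) by 1.37 (adjusted p = 0.0650). SULT2A1 was 9.98, 10.01 and 10.37 in the Landrace sows and 7.16, 6.81 and 8.91 in the Yorkshire sows, and FGF7 was 7.76, 6.48 and 6.82 against 5.48, 4.11 and 5.07, with no overlap in either.

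**Figure D4:**
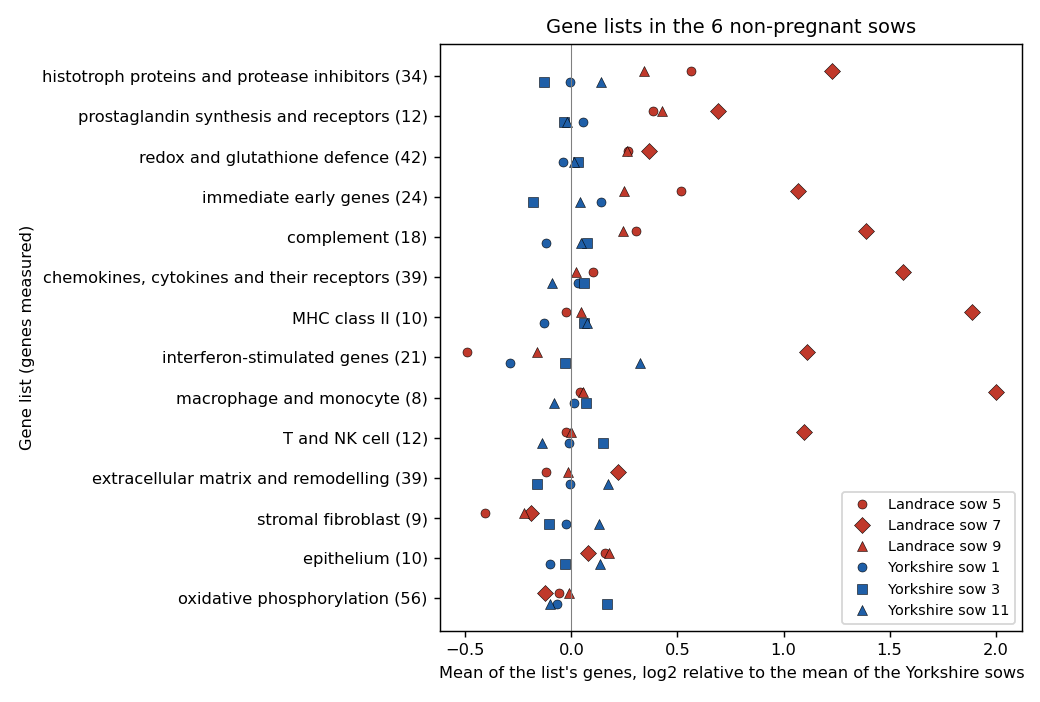
Mean of each gene list (log2, relative to the mean of the 3 Yorkshire sows) in the 6 non-pregnant sows, with 1 point per sow and the number of measured genes in brackets. In the macrophage and MHC class II lists sow 7 lies at 2.0 and 1.89 and the other 5 sows near 0. In the histotroph, prostaglandin, redox, immediate early and complement lists all 3 Landrace points lie above the 3 Yorkshire points.

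The same breed comparison in the pregnant sows, which are other animals, called 40 of 6765 genes (0.591%), 10 higher in Landrace sows (0.148%) and 30 lower (0.443%). Both comparisons use the same estimate of each gene's spread, so the calls in the 2 states are not independent. Of the 54 genes lower in non-pregnant Landrace sows, 52 had the same sign in pregnant sows and 16 were called in the same direction. Of the 29 higher genes, 26 had the same sign and 2 were called (LATS2, a Hippo pathway kinase, and CLK1, a kinase of splicing factors, named after their values were seen). In non-pregnant sows the call of LATS2 was lost without sow 1, 3, 5 or 9 and that of CLK1 when any of the 6 was left out. Over all genes 66.3% had the same sign in both states. The median difference of the 54 lower genes was -0.58 in pregnant sows, against -0.85 in non-pregnant sows, and that of the 29 higher genes was 0.35, against 1.13. Without the pregnant sow 12 the genes with the same sign were 52 of 54 and 20 of 29, and 10 and 1 (CLK1) were called, against 39 and 12 called over all genes.

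EGLN1 differed in pregnant sows by almost as much as in non-pregnant sows. It was 7.52, 7.43 and 7.64 in the pregnant Landrace sows 6, 8 and 10 and 8.81, 8.68 and 8.89 in the pregnant Yorkshire sows 2, 4 and 12 (-1.26, adjusted p = 0.00125), and -1.21 (adjusted p = 0.00446) without sow 12. LOC100621607 was 5.32, 4.85 and 5.12 against 7.81, 6.53 and 8.79 (-2.61, adjusted p = 0.0242), and BAX was 4.37, 5.08 and 5.01 against 6.08, 5.78 and 6.52 (-1.30, adjusted p = 0.0353). The breeds were separated in both states for these 3 genes. The call of BAX was lost without sow 12 (adjusted p = 0.0707). TMEM26, among the higher genes, differed by 1.62 in pregnant sows without passing the test (adjusted p = 0.0609).

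Other genes differed by breed in the non-pregnant sows and overlapped in the pregnant ones. RBP4 was 13.32, 12.86 and 13.31 in the pregnant Landrace sows and 13.26, 13.23 and 12.54 in the pregnant Yorkshire sows, a difference of 0.15 (adjusted p = 0.919). LIF was 5.69, 5.08 and 6.44 against 5.77, 5.92 and 4.47 (0.35, adjusted p = 0.837), and CCK was 5.03, 6.17 and 5.67 against 5.44, 5.25 and 6.81 (-0.21, adjusted p = 0.923). In both RBP4 and CCK the pregnant Yorkshire sows were closer to the Landrace sows of both states than to the non-pregnant Yorkshire sows. ACP5 (0.27), PTGS2 (0.31), IER3 (-0.35) and PHLDA2 (-0.26) likewise differed by little in the pregnant sows. UABP-2 lay at 9.88 to 11.34 in the pregnant Yorkshire sows, above the 5.69 to 7.87 of the non-pregnant ones. PTGS2 lay at 7.15 to 7.53 in the pregnant Landrace sows, below the 8.49 to 9.39 of the non-pregnant ones. Pregnancy itself was not tested here.

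A difference between the 2 breed contrasts was tested as an interaction, and no probe set was called in limma (0.00%, smallest adjusted p = 0.322), with 963 at an unadjusted p under 0.05 (4.01%). Among the 83 genes, 21 of the 29 higher and 14 of the 54 lower had an unadjusted interaction p under 0.05, against 4.97% of all genes. These genes were chosen by 1 of the 2 contrasts, so this count is no independent support. Without sow 12 the interaction called 18 probe sets, 7 of which stood for a gene, and none of these was among the 83. The smallest adjusted interaction p among the 83 was then that of MCUB, at 0.0684. LIF had an adjusted interaction p of 0.127, IER3 of 0.127, PHLDA2 of 0.112 and CCK of 0.125. It is therefore not shown for any of the 83 genes that the breed difference depended on pregnancy. PTGFR, the receptor of prostaglandin F2-alpha, differed by 0.85 in non-pregnant sows (adjusted p = 0.0669) and by 2.21 in pregnant sows (adjusted p = 0.000924), with an adjusted interaction p of 0.919.

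**Figure D5:**
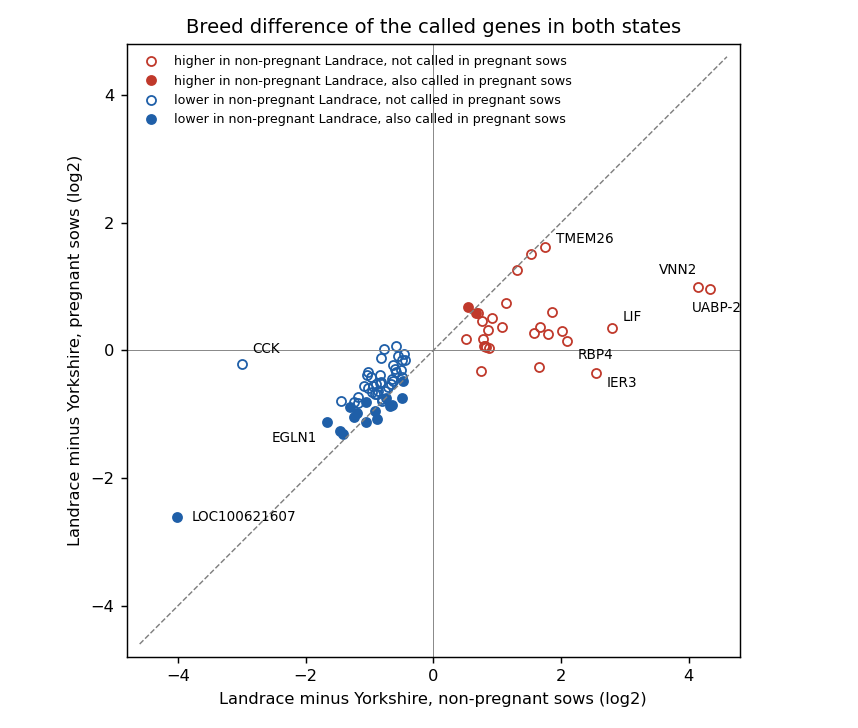
Landrace minus Yorkshire difference (log2) of the 83 called genes in the 6 non-pregnant sows (horizontal) and in the 6 pregnant sows (vertical), with 1 point per gene and the dashed line marking equal values. Filled points were also called in pregnant sows. Most genes lower in Landrace sows lie near the line, while VNN2, UABP-2, LIF, RBP4 and CCK lie between -0.21 and 1.0 on the vertical axis.

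Probe sets of the array design that the annotation leaves unnamed held the largest differences. The probe set with the largest difference was 3.45, 3.07 and 3.12 in Landrace sows 5, 7 and 9 and 10.35, 10.88 and 11.09 in Yorkshire sows 1, 3 and 11, a difference of -7.56 ± 0.47 (adjusted p = 5.84e-05). The next was 5.06, 4.69 and 5.6 against 12.02, 12.37 and 12.33, a difference of -7.13 ± 0.38 (adjusted p = 1.79e-05). The first lay below the lower quartile of all values in every Landrace sow, and both lay above the upper quartile in every Yorkshire sow. They differed alike in pregnant sows, by -6.38 and -6.12, and stayed called in each omission of a non-pregnant sow. In the other direction an unnamed probe set differed by 2.82 (adjusted p = 0.0140) and another by 2.80 (adjusted p = 0.00652). In all, 129 of the 250 called probe sets had no symbol or several, and 12 of these differed by more than 2 log2 units. Of the 23999 tested probe sets, 13732 had no symbol and 198 had several. Such probe sets were therefore no larger a share of those called than of those tested.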

How the data were processed

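The deposited values are log2 expression levels per probe set of 12 arrays, which the authors made with RMA, with the affy and limma packages also named, per the submitters' processing notes; versions are not given in the sources used here. RMA makes the arrays' distributions alike (medians 6.25 to 6.30), so differences are relative within an array, and low values hold mostly background. The number of arrays limits the precision. After 124 control probe sets were left out, 23999 were tested, 10069 with 1 symbol, 198 with several and 13732 with none in the platform annotation. The probe set with the highest mean stood for each of 6765 genes, 2261 of which had several. Of the gene identifiers 9961 were found in RefSeq (Sscrofa11.1), which changed 0 symbols. No build of the array design was given, so no coordinates are reported.

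Groups came from the labels, with 1 sow per array. The 4 groups were fitted together by lmFit and eBayes of limma 3.58.1 (R 4.3.3), with two-sided tests and 8 residual degrees of freedom, and p-values were adjusted by Benjamini-Hochberg over the 23999 probe sets. The procedure was tested on simulated data. Named genes were the 12 largest called differences each way, up to 3 called genes of each list (the gene with the smallest p where none was called) and the 3 smallest interaction p; up to 8 were allowed from the 4 lists with the largest called share. Lists (31 of genes, 16 of cell type markers, 964 of 1458 names measured) are given by counts and medians without a set test. The members, lists and tests were chosen with earlier results of these data known. Alternatives were other normalizations, a filter on dim probe sets, other priors, array weights, the 6 arrays alone, the GAPDH covariate, the mean of a gene's probe sets and leaving out each sow. Leaving out sow 12, and sow 7 from the 6 arrays alone, was added after seeing the data.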

Additional observations from a re-analysis of the deposited data

Results flagged for a closer look

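In 2 genes the breed difference lay in opposite directions in non-pregnant and pregnant sows, with no overlap between the breeds in either state. HSD17B2, which inactivates oestradiol and testosterone, was 0.51 higher in non-pregnant Landrace sows (6.74, 7.14 and 6.97 against 6.63, 6.11 and 6.58; limma adjusted p = 0.455) and differed by -2.07 in pregnant sows (5.06, 5.72 and 5.64 against 7.98, 7.77 and 6.87; adjusted p = 0.0115). Its adjusted interaction p was 0.444 over all 12 sows and 0.0189 without the pregnant Yorkshire sow 12, which had the lowest HSD17B2 level of the pregnant Yorkshire sows. DHRS7, a short-chain dehydrogenase, was 0.74 higher in non-pregnant Landrace sows (8.69, 8.11 and 8.16 against 7.67, 7.58 and 7.47; adjusted p = 0.0473) and differed by -0.32 in pregnant sows (7.25, 7.14 and 7.08 against 7.61, 7.54 and 7.28; adjusted p = 0.434). Its adjusted interaction p was 0.919, and its call in non-pregnant sows was lost when any of the 6 was left out. The search for such reversals covered the genes named by the rule and the called genes.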

How the results depend on the processing

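The counts of probe sets called in non-pregnant sows (95 higher, 155 lower) stayed within 1.5 times under cyclic loess, median centring, the filter on dim probe sets and the trended robust prior. Array weights gave 350 and 376 probe sets (93 and 130 genes). The 6 arrays alone gave 61 and 87 (28 genes lower), and without sow 7 as well 34 genes lower. Leaving out sow 12 gave 175 and 254 probe sets (54 and 84 genes) and 18 interaction calls. With the GAPDH covariate 0 were called in either state; the covariate separates the breeds without overlap, and S100A9 reversed to -0.98 (adjusted p = 0.986). Leaving out each non-pregnant sow in turn gave 23 to 73 probe sets higher and 58 to 131 lower, 7 to 26 genes higher and 16 to 42 lower, and 0 to 1 interaction calls (1 without sow 5). No other named gene reversed under any alternative run. The cause of these changes was not tested. No paired analysis was possible because the groups share no replicate numbers. Levels near background limit what weakly expressed genes can show.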

Other observations

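All 83 called genes could be placed in the RefSeq gene order, and 2 pairs of them had fewer than 10 genes between them. How many such pairs 83 genes drawn at random would give was not tested. PRELID1 and RAB24 are next to each other and both were higher in non-pregnant Landrace sows (0.91 and 0.80). PTP4A2 and KHDRBS1 have 1 gene between them and differed in opposite directions (1.52 and -0.47). The call of PTP4A2 was lost without sow 3, 5, 7, 9 or 11, and those of KHDRBS1 and RAB24 without sow 1, 3, 5, 7 or 11. The 2 other probe sets of PTP4A2 differed by 0.16 and 0.19. In pregnant sows PTP4A2 differed by 1.51 (limma adjusted p = 0.0620) and KHDRBS1 by -0.48 (adjusted p = 0.0390, or 0.0769 without sow 12).

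Of the 29 called genes higher in Landrace sows, 7 had other probe sets on the array, 9 in all, of which 7 had the same sign and 0 were called. Of the 54 lower genes, 25 had 43 other probe sets, of which 37 had the same sign, 4 were called in the same direction and 0 in the opposite one.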
